A study of Mus musculus with 24 samples.

Results

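The step from hyperplasia to adenoma in mammary tumors of PyMT mice was examined in 6 of the 24 small RNA libraries of the study, chosen by their sample labels. Of these, 3 came from tumor tissue of MMTV-PyMT mice at week 6, labelled hyperplasia, and 3 from MMTV-PyMT mice at week 8, labelled adenoma/MIN (mammary intraepithelial neoplasia). Both groups were females on the FVB strain, heterozygous for a transgene in which the MMTV promoter, active mainly in mammary epithelium, drives the polyoma virus middle T oncogene. The libraries of a group came from different mice, and no mouse was sampled at both ages, so age and stage cannot be told apart. The study's methods state that tissue of both stages still held cells of the normal mammary gland. Which mammary gland was taken is not given in the labels or methods. Normal glands of FVB females at weeks 6 and 8, 3 libraries each, were used only to show whether a difference was also present without the transgene.

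MicroRNAs (miRNAs) are short RNAs that bind messenger RNAs, mostly through the seed near their 5′ end, and lower their stability or translation. Many are made mainly in one kind of cell, so their levels in a piece of tissue depend on which cells it holds as well as on what each cell makes. In mammary tissue the miR-200 and miR-183 families mark epithelium, miR-143 and miR-199a mark stroma and smooth muscle, and the family of miR-1, miR-133 and miR-206 marks striated muscle. From bulk tissue, fewer cells of a type and less RNA per cell cannot be told apart.

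Mature sequences are shown for the miRNAs on which the comparison turns, as given by RefSeq for GRCm38.p6, 5′ to 3′, with the seed (bases 2 to 8) in capitals. The RefSeq table held a mature sequence under the same name for 399 of the 510 names counted, and the counts do not separate the arms of a hairpin. The first pair stands for the muscle family, with miR-133b that fell and miR-206 that was too low to be tested, the next pair for miRNAs of the Hox gene clusters, and the next 3 for miRNAs with small unadjusted p-values. The miR-183 family, the most counted tumor miRNA and a miRNA that was high in 1 library follow.
miR-133b-3p: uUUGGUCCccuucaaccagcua
miR-206-3p: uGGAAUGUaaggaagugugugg
miR-196a-5p: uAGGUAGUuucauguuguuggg
miR-10b-5p: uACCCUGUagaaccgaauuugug
miR-340-5p: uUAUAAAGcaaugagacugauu
miR-22-3p: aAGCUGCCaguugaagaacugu
miR-31-5p: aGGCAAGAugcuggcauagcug
miR-183-5p: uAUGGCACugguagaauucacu
miR-96-5p: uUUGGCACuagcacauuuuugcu
miR-182-5p: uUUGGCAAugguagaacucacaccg
miR-148a-3p: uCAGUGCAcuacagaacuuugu
miR-9-5p: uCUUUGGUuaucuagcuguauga

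In the mm9 annotation, Mir133b lies on chromosome 1 at 20672850-20672968 (+), outside any other gene on its strand. It is separated by 3686 bases from Mir206, at 20669091-20669163 (+). Mir1a-1 and Mir133a-2 are likewise neighbours, on chromosome 2 at 180123753-180123829 (+) and 180133084-180133187 (+). miR-1 and miR-133a each have a further gene copy, and the counts do not separate copies. Mir10b lies on chromosome 2 at 74564127-74564194 (+), in an intron of Hoxd3 and Hoxd4. miR-196a has a copy on chromosome 11 at 96126478-96126579 (+) and another on chromosome 15 at 102803772-102803881 (+). Mir340 lies in an intron of Rnf130, on chromosome 11 at 49883204-49883301 (+).

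Total miRNA counts in the 6 libraries ranged from 1032241 to 2102395, and 3 counts corresponded to between 1.43 and 2.91 CPM (the count per 1000000 counts of the library) before scaling. Such floors cover counting error only. Replicates 1 and 2 of both groups were sequenced on lane 1 and replicate 3 on lane 2. Of the 510 miRNAs listed, 184 had no count in these libraries, 110 had counts but were too low to be tested, and 216 were tested. Of 56 names placed only on chromosome X in the mm9 annotation, 55 were at 0 in all 24 libraries, against 71 of 380 on the autosomes, and let-7f, the exception, also has an autosomal copy. A value of 0 for an X-linked miRNA is therefore not read as absence. The tested miRNAs held at least 99.97% of the counts of each library. The week 8 library of replicate 2 stood apart, with the lowest total, 264 miRNAs detected against 286 to 295 in the other 5 and 46.0% of its counts on miR-148a against 29.8% to 34.3%. Over the tested miRNAs, correlations of log2 CPM were between 0.990 and 0.992 within week 6, between 0.965 and 0.987 within week 8 and between 0.946 and 0.980 across the groups. Over the 213 tested miRNAs outside the muscle family, they were between 0.992 and 0.993 within week 6 and between 0.964 and 0.987 within week 8. Across the groups they were then between 0.967 and 0.992, which overlaps the range within week 8. Values that moved by over 1.5 times without the week 8 library of replicate 2 are given both ways for most miRNAs described. Of 221 miRNAs tested without that library, 126 were lower at week 8, against 120 of 216 with it.

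The question of the comparison is which miRNAs differ between hyperplasia and adenoma/MIN. Of the 216 miRNAs tested, 3 fell from week 6 to week 8 (1.39% called) and 0 rose (0% called), in edgeR's quasi-likelihood test (p-values adjusted after Benjamini and Hochberg, threshold 0.05). All 3 belong to the muscle family: miR-133a, miR-1 and miR-133b. The Wald test of DESeq2 and the classic exact test of edgeR called 3 lower and 0 higher miRNAs as well. At an unadjusted p-value under 0.05, 15 miRNAs were lower (6.94%) and 7 higher (3.24%). The smallest adjusted p-value of the other 213 miRNAs was 0.36. Groups did not overlap for 22 miRNAs that were lower (10.2%) and 18 that were higher (8.33%) at week 8. The 95% confidence interval of the log2 fold change lay within 1 of 0 for 135 miRNAs and reached further for 81, so that a larger change of these 81 lay within the interval. The median log2 fold change over all tested miRNAs was -0.04, and the median standard error (SE) was 0.26.

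**Figure D1:**
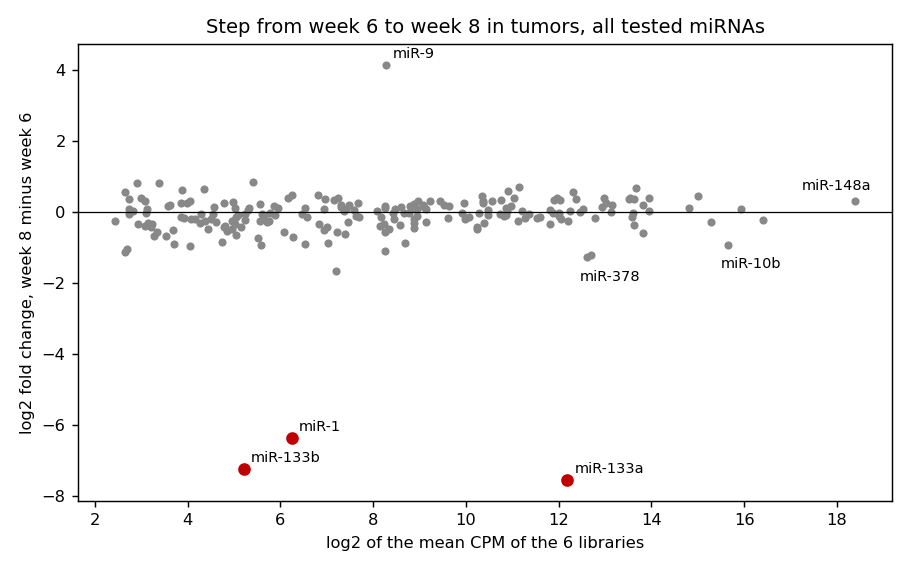
Each point is 1 of the 216 tested miRNAs, with the log2 of its mean CPM over the 6 tumor libraries on the x axis and its log2 fold change (week 8 minus week 6) on the y axis. The 3 miRNAs past the adjusted threshold, in red, lie between -7.54 and -6.36, and miR-9 (4.15) is the single miRNA more than 1 above 0.

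miR-133a, which is made in skeletal and heart muscle, was present at 16886, 8738 and 2104 CPM in the week 6 tumors (replicates 1, 2 and 3) and at 60.7, 48.8 and 39.2 CPM in the week 8 tumors. The lowest week 6 tumor was far above the highest week 8 tumor, while the week 6 tumors also differed widely among themselves. The mean was 9242 ± 7404 CPM (SD, n = 3) at week 6 and 49.6 ± 10.8 CPM (SD, n = 3) at week 8. miR-133a fell by 7.54 on the log2 scale (SE 0.85, adjusted p = 0.0101, edgeR's quasi-likelihood test). As a ratio of scaled counts summed over the groups, 49980 counts at week 6 and 232 at week 8, the level was 202 times as high at week 6 (counting interval 178 to 231).

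miR-1, which is processed from the same primary transcripts as miR-133a, was present at 237, 136 and 75.7 CPM at week 6 and at 3.47, 2.27 and 0 CPM at week 8. Again the groups did not overlap, and the order of the week 6 tumors was that of miR-133a. miR-1 fell by 6.36 on the log2 scale (SE 0.86, adjusted p = 0.0162, edgeR's quasi-likelihood test).

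miR-133b, a near copy of miR-133a encoded beside miR-206, was present at 138, 61.8 and 20.97 CPM at week 6. At week 8 it was at 0 CPM in replicates 1 and 2 and at 0.93 CPM in replicate 3, which is under the floor of 3 counts. It fell by 7.24 on the log2 scale (SE 1.11, adjusted p = 0.0233, edgeR's quasi-likelihood test). Its 403 counts at week 6 and 2 at week 8 gave a ratio of scaled counts of 189 (counting interval 52.0 to 1566). Reads of miR-133b and miR-133a can be shared between these names, so their separate values are uncertain.

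The other 3 muscle miRNAs were too low to be tested. miR-206, the sister of miR-1 in skeletal muscle, had 9 counts in the week 6 and 0 in the week 8 tumors. miR-499, which lies in a myosin gene, had 9 and 0, and miR-208b had none in either group. The 6 muscle miRNAs together made up 1.73%, 0.922% and 0.225% of all counts in the week 6 tumors and between 0.0044% and 0.0065% in the week 8 tumors.

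**Figure D2:**
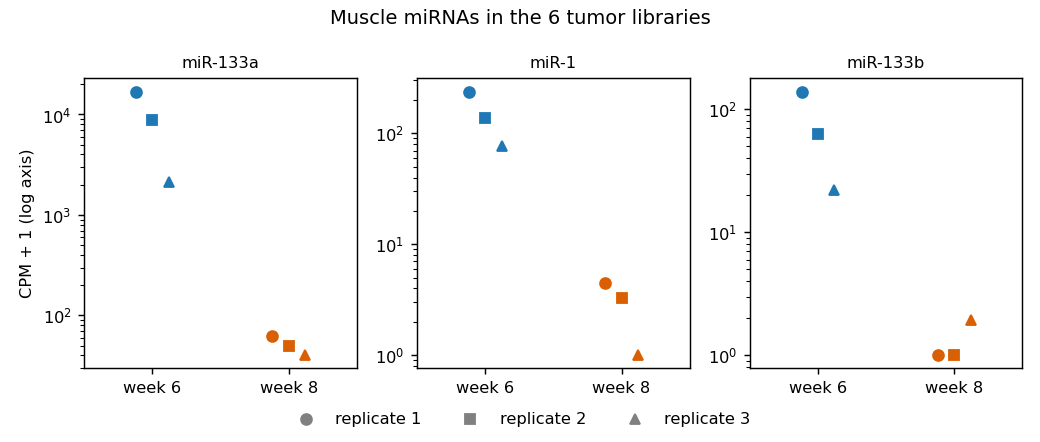
CPM plus 1 on a log axis for miR-133a, miR-1 and miR-133b in the 3 week 6 and the 3 week 8 tumors, with 1 symbol for each replicate. Every week 6 tumor lies above every week 8 tumor in the 3 panels, and replicate 1 is the highest and replicate 3 the lowest of the week 6 tumors.

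These 3 calls depended on which libraries entered the fit. All 3 stayed past the threshold without the week 8 tumor of replicate 2, with adjusted p-values from 0.0128 to 0.0401 in edgeR's quasi-likelihood test. None passed without the week 8 tumor of replicate 1, and without the week 6 tumor of replicate 2 only miR-133a passed, at an adjusted p of 0.0498. In a fit that also held the week 10 and week 12 tumors, the log2 fold change of miR-133a was -7.48 with an adjusted p of 0.163 in the same test. In the later tumors, miR-133a had 235, 41 and 23855 counts at week 10 and 413, 775 and 856 at week 12, so that 1 of these 6 was as high as the week 6 tumors.

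Normal glands of the same ages were compared in the same way. miR-133a had 179130, 80335 and 350 counts in the normal glands of week 6 and 559, 537 and 575 counts in those of week 8. Replicates 1 and 2 of week 6 were thus high in normal glands too, while replicate 3 of week 6 was below all 3 glands of week 8. The muscle miRNAs made up 9.50%, 3.26% and 0.0106% of the counts in the normal glands of week 6 and between 0.0165% and 0.0365% in those of week 8. The log2 fold changes of miR-133a, miR-1 and miR-133b in normal glands were -7.29, -7.47 and -6.80, and none passed the adjusted threshold in edgeR's quasi-likelihood test. The Wald test of DESeq2 called all 3, with adjusted p-values from 0.00152 to 0.00569, and edgeR called them without the week 6 gland of replicate 3. That edgeR fit keeps only the week 6 glands in which these miRNAs were high, so its calls are not evidence of a change. The step in tumors minus the step in normal glands was -0.23 for miR-133a (SE 1.81, unadjusted p = 0.899), 1.13 for miR-1 (SE 2.35, unadjusted p = 0.639) and -0.51 for miR-133b (SE 2.36, unadjusted p = 0.834), in the interaction test of edgeR. A difference in muscle miRNAs between the steps of tumor and normal tissue was thus not detected at this precision.

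miR-196a, which is encoded in the Hox gene clusters and marks position along the body axis in many tissues, had too few counts in most libraries to be tested. It was at 0.95, 0.80 and 3.49 CPM in the week 6 tumors and at 119, 2.27 and 156 CPM in the week 8 tumors. The week 8 tumors of replicates 1 and 3 were high and that of replicate 2 lay within the range of week 6. Without the week 8 tumor of replicate 2, miR-196a entered edgeR's quasi-likelihood test, with a log2 fold change of 6.23. That fit keeps only the week 8 tumors in which miR-196a was high, so its call there is not evidence of a change.

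Its close relative miR-196b, which was chosen after its values were seen, was tested. It was at 23.8, 38.5 and 125 CPM at week 6 and at 98.3, 4.54 and 139 CPM at week 8, and the groups overlapped. Its log2 fold change was 0.39 (SE 1.00, adjusted p = 0.865, edgeR's quasi-likelihood test). It was 0.93 without the week 8 tumor of replicate 2, the library in which miR-196b was lowest. Within each week, the library with the most miR-196a also had the most miR-196b.

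In normal glands, miR-196a had 4, 8 and 2556 counts at week 6 and 1696, 14 and 927 at week 8. The normal glands of week 6 with the most muscle miRNA, replicates 1 and 2, had the fewest miR-196a counts of that week, and all 3 week 6 tumors were high in muscle miRNA and low in miR-196a. The week 8 tumor of replicate 2 was low in both. The part of the gland's position in these differences was not tested, since the labels do not give it.

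**Figure D3:**
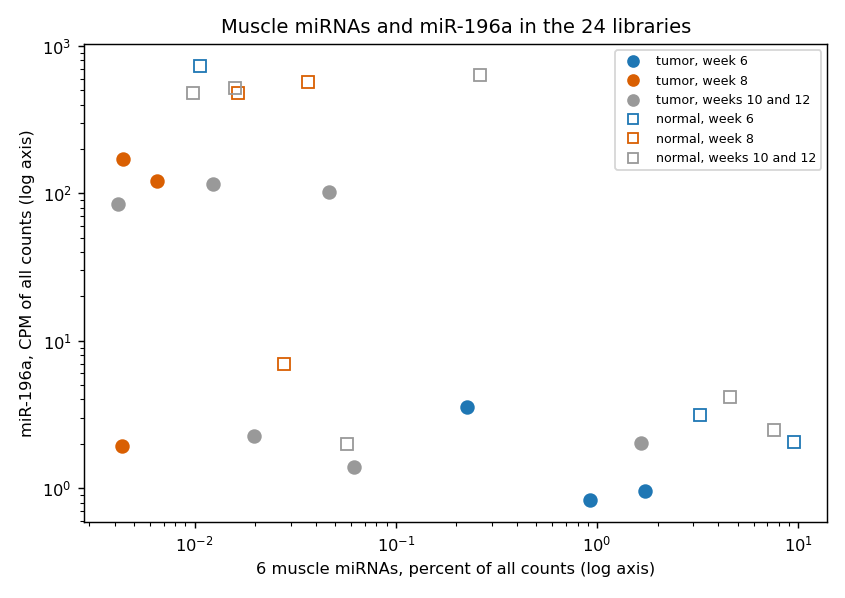
Share of the 6 muscle miRNAs among all counts (percent, log axis) against miR-196a (CPM of all counts, log axis), with 1 point for each of the 24 libraries. The 3 week 6 tumors, filled blue, lie at a muscle share of 0.225% or more with 6 or fewer counts of miR-196a, and 2 of the 3 week 8 tumors, filled orange, lie at the upper left.

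miR-10b, also a Hox-cluster miRNA and known for a role in the spread of breast cancer cells, was the fourth most counted miRNA in these tumors. It was at 60992, 62228 and 78206 CPM at week 6 and at 37326, 18854 and 50142 CPM at week 8, so that every week 8 tumor was below every week 6 tumor. The log2 fold change was -0.92 (SE 0.35, 95% confidence interval -1.75 to -0.09), and the adjusted p of 0.407 in edgeR's quasi-likelihood test did not pass. It was -0.60 without the week 8 tumor of replicate 2. In normal glands the log2 fold change of miR-10b was 0.21, and the tumor step minus the normal step was -1.08 (unadjusted p = 0.0261, interaction test of edgeR), which did not pass the adjustment. Its paralog miR-10a, at 47216, 48764 and 35072 CPM at week 6, was at 45810, 18148 and 43096 CPM at week 8. Here the groups overlapped and the log2 fold change was -0.29 (SE 0.35), which turned to 0.04 without the week 8 tumor of replicate 2.

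Outside the muscle family, the 8 higher and 5 lower miRNAs with the smallest p-values had log2 fold changes between -1.05 and 0.85. They were picked by p in these same libraries, so groups that do not overlap are no further support. None of those given next passed the adjusted threshold, with adjusted p-values from 0.36 to 0.407 in edgeR's quasi-likelihood test. Among those higher at week 8, miR-466b and miR-466e belong to a large cluster in an intron of Sfmbt2. miR-466b was at 30.9, 28.9 and 30.3 CPM at week 6 and at 64.8, 57.9 and 41.1 CPM at week 8. The groups did not overlap, and the log2 fold change was 0.85 (SE 0.24). miR-466e was much lower, between 5.71 and 8.82 CPM at week 6 and between 9.80 and 16.8 CPM at week 8, with a log2 fold change of 0.83 (SE 0.31).

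miR-340 was at 1900, 1784 and 1761 CPM at week 6 and at 2394, 2596 and 2246 CPM at week 8. Its libraries were close to each other within both groups and did not overlap between them, and the log2 fold change was 0.41 (SE 0.12). miR-21, an oncogenic miRNA raised in many cancers, was at 13622, 13186 and 13783 CPM at week 6 and at 16951, 15681 and 20910 CPM at week 8. The groups did not overlap, and the log2 fold change was 0.40 (SE 0.15, 95% confidence interval 0.04 to 0.75). In normal glands its log2 fold change was 0.0011 (SE 0.21), and the difference between the steps was 0.46 (unadjusted p = 0.145, interaction test of edgeR).

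miR-125a, a relative of the lin-4 miRNA, was at 7299, 6360 and 7255 CPM at week 6 and at 9792, 9941 and 7841 CPM at week 8, with a log2 fold change of 0.40 (SE 0.14). The groups did not overlap. In normal glands the log2 fold change of miR-125a was 0.61 (SE 0.30). The difference between the steps was -0.18 (unadjusted p = 0.647, interaction test of edgeR). miR-140, known from cartilage, was at 1491, 1909 and 1162 CPM and then at 2028, 3026 and 1899 CPM. Here the lowest week 8 tumor was just below the highest week 6 tumor, and the log2 fold change was 0.61 (SE 0.25) and 0.39 without replicate 2 of week 8.

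miR-31, which is known to restrain metastasis in breast cancer cells, was at 1606, 1978 and 1537 CPM at week 6 and at 2907, 3906 and 1607 CPM at week 8. Replicates 1 and 2 of week 8 were above week 6, and replicate 3 was within its range. The log2 fold change was 0.72 (SE 0.31, adjusted p = 0.407, edgeR's quasi-likelihood test). Without replicate 3 of week 8 it was 1.07 with an adjusted p of 0.037, and without replicate 2 of week 8 it was 0.42 with an adjusted p of 0.602, in the same test.

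Of the miRNAs lower at week 8, miR-22, which is abundant in stroma and muscle, was at 3957, 4152 and 3892 CPM at week 6 and at 2992, 3136 and 3439 CPM at week 8. The groups did not overlap, and the log2 fold change was -0.33 (SE 0.11). miR-193, which is enriched in adipocytes, was at 124, 213 and 173 CPM at week 6 and at 90.2, 73.8 and 112 CPM at week 8, again without overlap (log2 fold change -0.88, SE 0.28). The remaining 3 had few counts. miR-1943 was between 7.62 and 9.32 CPM at week 6 and between 3.27 and 5.68 CPM at week 8, miR-1965 was between 10.4 and 13.3 CPM and then between 6.82 and 8.10 CPM, and miR-673 was between 19.2 and 27.6 CPM and then between 8.10 and 13.5 CPM.

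**Figure D4:**
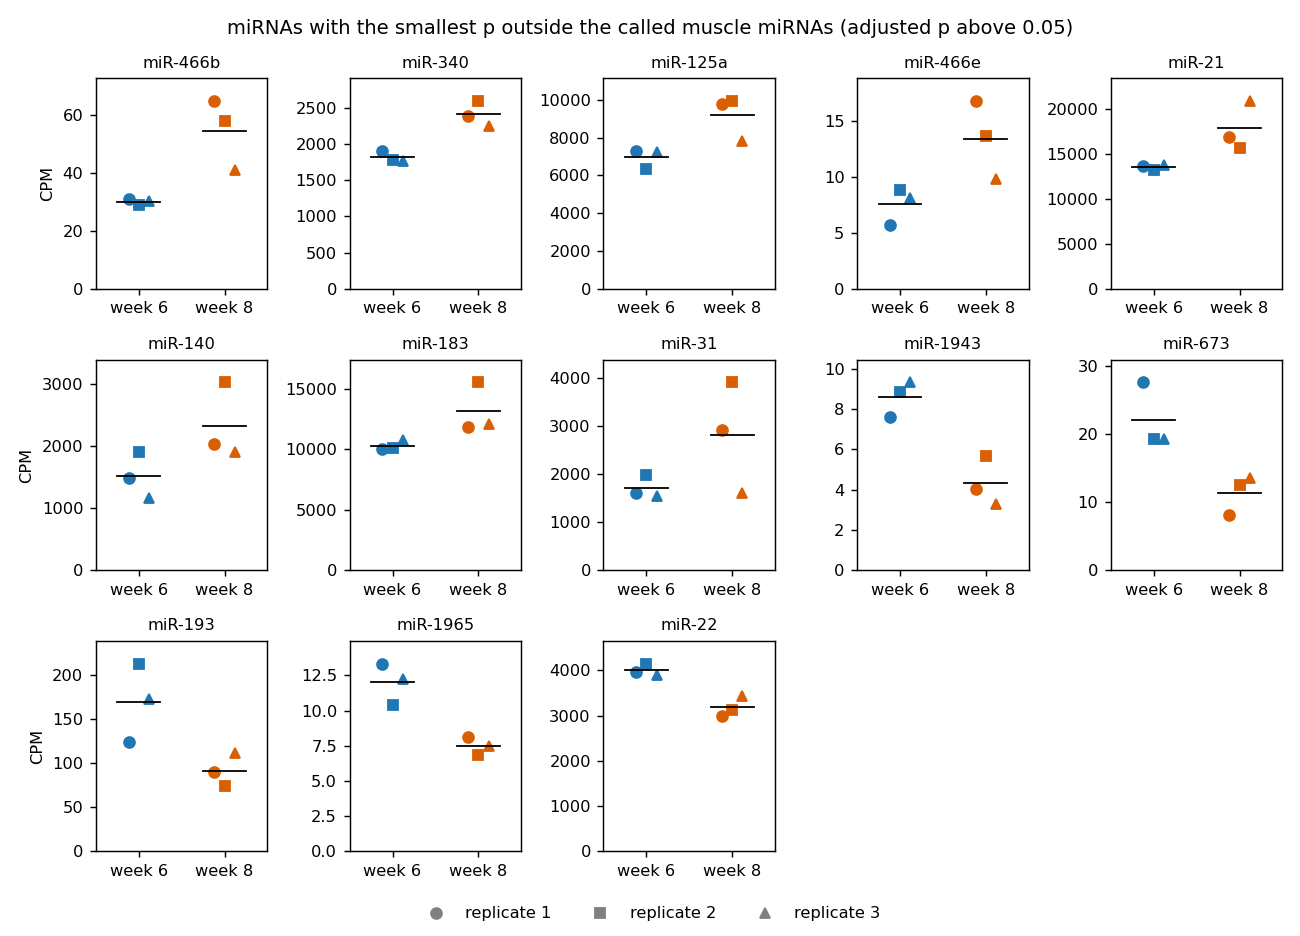
CPM in the 3 week 6 (blue) and 3 week 8 (orange) tumors for the 8 higher and 5 lower miRNAs with the smallest p-values outside the muscle family, none past the adjusted threshold, with 1 symbol for each replicate and a bar at the group mean. The groups overlap for miR-140 and miR-31 and are apart for the other 11. These miRNAs were picked by p in the same libraries, so their separation is not further support. Over all 216 tested miRNAs, groups were apart for 10.2% lower and 8.33% higher.

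None of the 10 most counted miRNAs was called. miR-148a, which is high in mammary epithelium and milk, was at 326801, 293557 and 302259 CPM at week 6 and at 337105, 539549 and 272080 CPM at week 8. Replicate 2 of week 8 was by far the highest, and the log2 fold change of 0.32 (SE 0.32) was -0.0032 without that library. miR-143, of smooth muscle and stroma, was at 90120, 89238 and 101722 CPM at week 6 and at 87715, 63639 and 88724 CPM at week 8. Its groups did not overlap but lay close together, and the log2 fold change was -0.23 (SE 0.21) and -0.07 without replicate 2 of week 8.

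miR-92a, of the miR-17-92 oncogenic cluster, was between 54453 and 65524 CPM at week 6 and between 62044 and 64939 CPM at week 8, with a log2 fold change of 0.08 (95% confidence interval -0.30 to 0.47). miR-26a was between 13928 and 18182 CPM over both groups, with a log2 fold change of 0.03 (95% confidence interval -0.31 to 0.37). Both intervals held 0 and values on either side of it. miR-146b, a regulator of inflammatory signalling, was between 23885 and 37364 CPM over both groups, with a log2 fold change of 0.12 (SE 0.21) and -0.06 without replicate 2 of week 8.

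miR-27b, named in the study, was at 9672, 11713 and 8710 CPM at week 6 and at 12560, 24628 and 11158 CPM at week 8. Replicate 2 of week 8 was high, and the log2 fold change of 0.68 (SE 0.31) was 0.26 without it. miR-9, known from brain and from metastatic breast cancer cells, was at 20.5, 15.2 and 61.7 CPM at week 6 and at 25.5, 1716 and 9.33 CPM at week 8. Replicate 2 of week 8 was the one high library, and the log2 fold change of 4.15 (SE 1.86, adjusted p = 0.407, edgeR's quasi-likelihood test) turned to -0.93 without it. In the normal glands of both ages miR-9 had between 21 and 55 counts.

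Most epithelial miRNAs had a small positive log2 fold change, and none was called. Of 11 tested, 10 had a positive log2 fold change and 1 (miR-203) a negative one, with a median of 0.33 beside -0.04 over all 216 miRNAs, and 0 passed the adjusted threshold. Over all 216 miRNAs, 96 were positive. At an unadjusted p under 0.05 there was 1, miR-183, while 3.24% of all tested miRNAs were higher at that p. The miR-183 family is made from a single cluster on chromosome 6, and its members lay close together. miR-183 was at 10010, 10105 and 10739 CPM at week 6 and at 11863, 15528 and 12090 CPM at week 8, with a log2 fold change of 0.36 (SE 0.15). miR-182 was at 26220, 29684 and 26424 CPM and then at 32481, 49891 and 31092 CPM, with a log2 fold change of 0.46 (SE 0.22), and miR-96 had 0.35 (SE 0.19). The groups did not overlap for any of these 3, while 8.33% of all tested miRNAs were higher without overlap. Of the miR-200 family, which holds cells in an epithelial state, miR-200a, miR-200b and miR-200c had log2 fold changes of 0.35, 0.40 and 0.32. miR-429 and miR-141 had 0.33 and 0.12. In the same order, these values were 0.10, 0.22, 0.26, 0.08 and -0.04 without the week 8 tumor of replicate 2. miR-183 and miR-182 were at 0.23 and 0.23 without it. In the same setting, 8 of the 11 were positive and the median was 0.22. The negative ones were miR-141, miR-203 and miR-375, which went from 0.20 to -0.47 for miR-375. In normal glands, 7 of the 11 were positive and 4 negative, with a median of 0.22 beside 0.06 over all 218 miRNAs tested there.

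Most stroma and smooth muscle miRNAs had a small negative log2 fold change, and none was called. Of 10 tested, 9 had a negative log2 fold change, with a median of -0.20, and 1 (miR-22) had an unadjusted p under 0.05. Over all 216 miRNAs, 120 were negative, and 6.94% were lower at that p. Their summed level was 120450, 116281 and 137966 CPM at week 6 and 116535, 87855 and 119218 CPM at week 8, so the groups overlapped. The median was -0.03 without the week 8 tumor of replicate 2. Endothelial miR-126 was at 12588, 18133 and 11968 CPM at week 6 and at 14389, 6346 and 12666 CPM at week 8, and its log2 fold change of -0.35 (SE 0.32) was -0.05 without that library.

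The 3 erythroid miRNAs all had negative log2 fold changes, with a median of -0.63 that was -0.21 without the week 8 tumor of replicate 2, and none was called. miR-486 was at 11667, 10099 and 6264 CPM at week 6 and at 2307, 1571 and 8173 CPM at week 8. Replicates 1 and 2 of week 8 were below every week 6 tumor, but replicate 3, sequenced on the other lane, was within their range. The log2 fold change was -1.22 (SE 0.61, adjusted p = 0.428, edgeR's quasi-likelihood test) and -0.81 without replicate 2 of week 8. Among the 4 lane 1 libraries alone it was -2.49 with an adjusted p of 0.00124, and that of miR-451 was -1.85 with an adjusted p of 0.00705, in the same test. This fit leaves out replicate 3 of both weeks. Over all 6 libraries, miR-451 had -0.47 (adjusted p = 0.773, same test), and -0.05 without the week 8 tumor of replicate 2. Neither miR-486 nor miR-451 was called with lane as a covariate. How much blood the samples held was not tested.

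Adipocyte miRNAs had negative values for 3 of 4 tested, with a median of -0.32 that was -0.18 without the week 8 tumor of replicate 2. miR-193, described above under its own name (-0.88), is not among the 4, since the list holds the name miR-193a, which the table does not list. miR-378, which lies in the gene of a mitochondrial regulator and is high in fat and muscle, was at 7878, 13658 and 4859 CPM at week 6 and at 5448, 2249 and 3278 CPM at week 8. The groups overlapped through replicate 3 of week 6 and replicate 1 of week 8. The log2 fold change was -1.27 (SE 0.45, adjusted p = 0.407, edgeR's quasi-likelihood test), and without the week 6 tumor of replicate 2 it was -0.81.

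Of 6 leukocyte miRNAs, the X-linked miR-223 was at 0 in the 6 libraries and is not read. Of the 5 tested, 2 had negative and 3 positive values, with a median of 0.21. Their summed level ranged from 3085 to 3497 CPM at week 6 and from 3394 to 3733 CPM at week 8. miR-142, found in all blood lineages, had a log2 fold change of 0.31 (SE 0.16). miR-150, of mature lymphocytes, was at 293, 480 and 319 CPM at week 6 and at 345, 142 and 246 CPM at week 8, with a log2 fold change of -0.57 (SE 0.36) and -0.28 without replicate 2 of week 8. In normal glands miR-150 had a log2 fold change of 0.99, and the difference between the steps was -1.53 (unadjusted p = 0.0143, the smallest of the interaction test of edgeR), which did not pass the adjustment.

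The Dlk1-Dio3 domain, an imprinted region with a large cluster of miRNAs expressed from the maternal copy, gave negative log2 fold changes for 25 of its 30 tested members and positive ones for 5, with a median of -0.30 that was -0.19 without the week 8 tumor of replicate 2. Over all 216 miRNAs, 120 were negative. At an unadjusted p under 0.05 there were 3, miR-127, miR-136 and miR-673 (6.94% of all miRNAs tested were lower at that p), and 0 passed the adjusted threshold. miR-127, its most counted member, was at 20107, 15330 and 16766 CPM at week 6 and at 9164, 10010 and 15789 CPM at week 8. Replicates 1 and 2 of week 8 were below week 6 and replicate 3 was within its range (log2 fold change -0.58, SE 0.24). In normal glands, all 39 tested members had negative values with a median of -0.91, beside 0.06 over all 218 miRNAs tested there. The members are made from few transcripts and are not independent of each other.

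The cluster in the Sfmbt2 intron gave positive values for 9 of 11 tested members, with a median of 0.37. Of these, 2 (miR-466b and miR-466e) had an unadjusted p under 0.05. Over all 216 miRNAs, 96 were positive, and 3.24% were higher at that p. The summed level of the 11 was between 106 and 133 CPM at week 6 and between 147 and 205 CPM at week 8. Its members are near copies of each other, so reads can be shared among their names, and each member's value is uncertain. In normal glands, 6 members were tested and all 6 were positive, with a median of 0.23 beside 0.06 over all 218 miRNAs tested there.

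The miR-17-92 cluster with its paralogs, known to promote proliferation, and the let-7 family, known to restrain it, were near 0. Of 9 miR-17-92 members tested, 5 were positive and 4 negative, between -0.04 and 0.10, with a median of 0.04. With DESeq2 size factors all 9 were positive. Of 8 let-7 members, 7 were negative and 1 positive, between -0.24 and 0.05, with a median of -0.05, and with DESeq2 size factors 4 were negative. let-7i, with the smallest p of the family, had -0.24 (SE 0.14). The signs of both families thus depended on the scaling. let-7c, the most counted member of its family, was between 11231 and 13315 CPM over the 6 libraries.

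Of the miRNAs linked to blood vessel growth, 7 of 10 tested were negative and 3 positive, with a median of -0.25, which was -0.03 without the week 8 tumor of replicate 2. At an unadjusted p under 0.05 there was 1, miR-10b, which was lower, as were 6.94% of all tested miRNAs at that p. Of 30 miRNAs selected from those the study names, 20 were tested, of which 15 were positive and 5 negative. The study names further miRNAs, so this tally holds for the selection alone. Over all 216 miRNAs, 96 were positive and 120 negative. The 3 that fell are the muscle miRNAs, which were 1.39% of all 216 tested. miR-466b, miR-466e and miR-21 were higher at an unadjusted p under 0.05, at which 3.24% of all tested miRNAs were higher. Since these names were chosen on libraries that include these 6, their directions are not independent evidence. Among the other tested names, the log2 fold change was 0.66 for miR-466c, which overlapped between the groups. miR-674 had 0.33, miR-92b 0.24, miR-141 0.12 and miR-17 0.10, and miR-1983 had -0.34, all with overlapping groups. Without the week 8 tumor of replicate 2, miR-674 was at 0.16, miR-92b at -0.02, miR-141 at -0.04 and miR-17 at 0.16. Of the 10 names not tested, miR-208b had no count in the 6 tumors, and neither had the X-linked miR-672. miR-466a had 21 counts over the week 6 and 42 over the week 8 tumors. In the fit of the 12 tumor libraries it was tested, with a log2 fold change of 1.13 and an adjusted p of 0.163 in edgeR's quasi-likelihood test. miR-466f had 6 and 2, miR-211 had 3 and 0, miR-592 had 6 and 1, miR-653 had 4 and 1, and miR-1963 had 7 and 0, too few to compare.

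**Figure D5:**
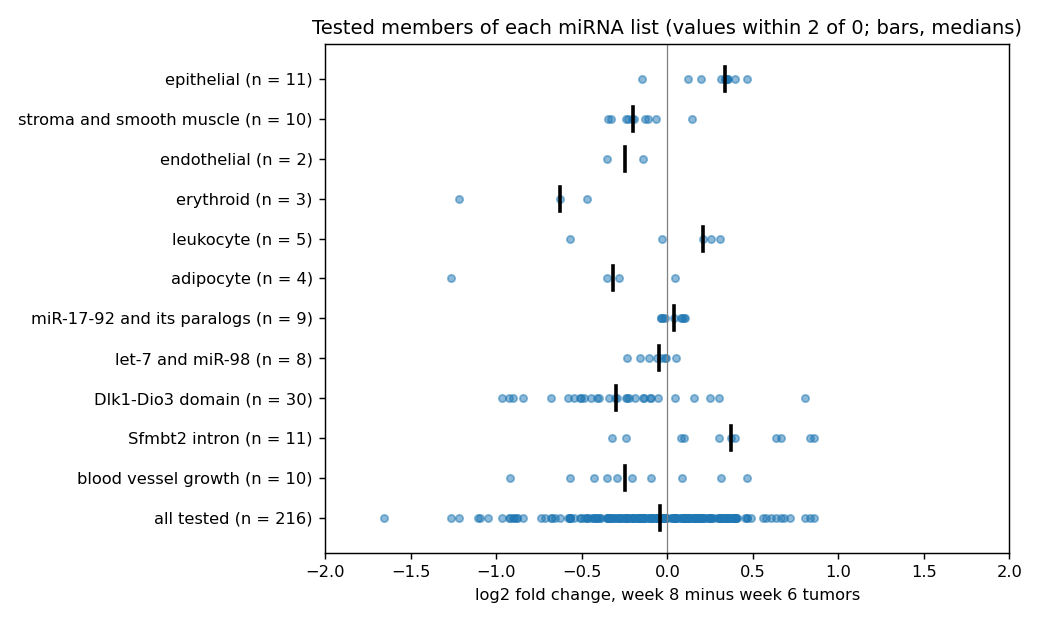
Each point is the log2 fold change (week 8 minus week 6 tumors) of a tested member of the list named on the y axis, with n the number tested and a bar at the median. The muscle list (median -7.24) and the list of names from the study are not drawn. The medians drawn lie between -0.63 (erythroid) and 0.37 (Sfmbt2 intron), and the 3 muscle miRNAs and miR-9 lie outside the range drawn.

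In normal glands from week 6 to week 8, 0 of 218 miRNAs passed the adjusted threshold (0% called), with 26 at an unadjusted p under 0.05, 22 of them lower at week 8. The Wald test of DESeq2 called 6 there, the 3 muscle miRNAs and miR-136, miR-337 and miR-380 of the Dlk1-Dio3 domain. The test of whether the step differed between tumor and normal gland called 0 of 234 miRNAs (0% called), with 10 at an unadjusted p under 0.05 and a smallest adjusted p of 0.987 in edgeR's quasi-likelihood test. The Wald test of DESeq2 called 0 as well. After miR-150, the smallest unadjusted p-values were those of miR-380 (0.0177), miR-181a (0.0188), miR-337 (0.026) and miR-10b. miR-181a, which tunes lymphocyte signalling, had a log2 fold change of 0.39 (SE 0.17, and 0.24 without replicate 2 of week 8) in tumors and -0.23 (SE 0.16) in normal glands. miR-337 had -0.24 (SE 0.30) in tumors and -1.32 (SE 0.34) in normal glands.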

How the data were processed

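Small RNA libraries were sequenced as single-end reads. The authors removed barcode and adaptor, aligned reads of mature miRNA length with Bowtie, and deposited the counts of reads overlapping each miRBase miRNA, without normalization. The labels name mm9 as the build and the paper's methods mm10. Counts are per miRNA name, and the strand and the handling of multiply aligned reads are not given in the sources used here.

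Groups, weeks, replicate numbers and lanes came from the labels. The 3 tumor libraries of week 6 and the 3 of week 8 were fitted alone with edgeR 4.0.16 in R 4.3.3: filterByExpr, TMM scaling, quasi-likelihood test and Benjamini-Hochberg adjustment over all tested miRNAs, at a threshold of 0.05. CPM values are scaled by TMM, and the SE is the log2 fold change divided by the square root of F. The normal step was fitted alike, and the difference of steps as an interaction in the 12 libraries. Counting intervals are exact binomial at 95% on counts summed over a group, and leave out the spread between mice. Alternatives included DESeq2 1.42.0, other scalings and filters, more libraries in the fit, lane, the replicate block, thinning and each library left out. A robust spread, leaving out muscle miRNAs, and list counts under other settings were chosen after seeing the data. The procedure was tested on simulated data. Plots used Python 3.11.15 and matplotlib 3.10.9.

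The libraries compared, the miRNA lists and the naming rule were chosen with earlier results of these data known. Named are up to 15 miRNAs past the threshold per direction or else the 8 with the smallest p, the 10 most counted, the top and the smallest-p member of each list, the 5 with the smallest interaction p and 30 selected from those named in the study. Other list members given as examples were chosen after their values were seen. Depth is given as total counts per library, between 1032241 and 2102395. The mm9 annotation gave the positions. Messenger RNA data were not analysed here.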

Additional observations from a re-analysis of the deposited data

How the results depend on the processing

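The 3 lower miRNAs became 1 with at least 10 counts in every library (miR-133a, the sole one of the 3 still tested), 0 with 12 tumor libraries or with 24 libraries in the fit, 5 with lane 1 libraries only and 0 with muscle miRNAs left out (an alternative chosen after seeing the data). With 1 library left out at a time the count ranged from 0 to 5 lower and from 0 to 1 higher miRNAs. The lowest count, 0, came without the week 8 tumor of replicate 1, a count of 1 without the week 6 tumor of replicate 2, and 5 without the week 8 tumor of replicate 3 (miR-133a, miR-1, miR-451, miR-486 and miR-667), which also gave 1 higher (miR-31). miR-196a was the 1 higher without the week 8 tumor of replicate 2, the week 8 library in which it was low. DESeq2 size factors, library sizes only, the DESeq2 Wald test, the exact test, no filter, lane as a covariate and a minimum of 1 on the log2 scale each gave 3 lower and 0 higher, and thinning to the smallest total gave 2 lower. The cause of the lost calls was not tested. The replicate block gave 3 lower and 0 higher miRNAs. The replicate numbers did not pair week 6 tumors with week 8 tumors: the correlations of same-numbered tumors' deviations were -0.18, -0.07 and 0.00. No week 8 tumor correlated best with the week 6 tumor of its own number. Whether a tumor is paired with the normal gland that bears its number and age was not tested. At week 6 the muscle share fell from replicate 1 to replicate 3 in both tissues. At week 8 it rose in that order in normal glands and was highest in replicate 1 in tumors. With the block, 0 miRNAs passed in the interaction and 0 in the normal step.

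The interaction gave 1 miRNA (miR-451, log2 difference -2.14) without the week 8 tumor of replicate 3, and between 0 and 1 with each library left out. The normal step gave 6 with the DESeq2 Wald test, 1 with 24 libraries in the fit (miR-380), and between 0 and 5 with each library left out, the 5 without the normal week 6 gland of replicate 3 (miR-1, miR-133a, miR-133b, miR-483 and miR-493). That gland was the week 6 gland low in muscle miRNAs, so the calls of miR-1, miR-133a and miR-133b without it are not evidence of a change. Of 44 named miRNAs, 35 kept their sign under every setting. With 1 library left out at a time, the log2 fold change ranged from -0.0032 to 0.58 for miR-148a, from -0.46 to 0.040 for miR-10a, from -0.058 to 0.32 for miR-146b, from -0.93 to 5.03 for miR-9, from -0.021 to 0.59 for miR-92b and from -0.035 to 0.33 for miR-141. The sign of these 6 turned without the week 8 tumor of replicate 2. It ranged from -0.028 to 0.19 for miR-26a and from -0.48 to 0.00057 for miR-337, which turned without the week 8 tumor of replicate 1, and from -0.050 to 0.11 for let-7c. miR-26a was at -0.019 with library sizes only. let-7c was at 0.025 with DESeq2 size factors and with the Wald test, 0.057 with the 5 most counted left out, 0.0061 with no filter, 0.041 with 12 and 0.030 with 24 libraries in the fit, 0.085 in lane 1 and 0.045 when thinned.

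With 3 libraries a group, the median SE of 0.26 limits what could be called, and the totals limit miRNAs under about 2.91 CPM in the shallowest library. An exact permutation test of 3 against 3 libraries cannot give a two-sided p below 0.10, so none was used.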
